A study of Rattus norvegicus and Sus scrofa and Bos taurus with 188 samples.

Results

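The genes described here carry the signal of leukaemia inhibitory factor (LIF) and interleukin 6 (IL6) from the cell surface to the nucleus. They were the 10 genes LIF, LIFR, IL6R, IL6ST, JAK1, JAK2, TYK2, STAT3, STAT5B and SOCS3, chosen by gene symbol, and all 10 were among the 15877 gene names of the table. They were measured in pig (Sus scrofa) morulae, the embryo stage at which the cells compact before a blastocyst forms. The morulae carry the mark PG, which sister samples spell out as parthenogenetic activation, that is, development of an egg without sperm. The 4 Smart-seq2 RNA libraries of this group were merged by the authors into 1 column of FPKM (fragment counts divided by transcript length and by sequencing depth). The breed, the number of embryos per library and any change made to their genome are not stated in the sources used here.

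Each value below is therefore 1 number with no replicate spread, and no test between groups was possible. The depth is unknown, so no detection limit can be set for a low value. A level of 1 FPKM or more, a conventional mark with no test behind it, is used below for counting. The level of a gene is its highest transcript row, and the sum of its rows is given for each of the 10 genes and for some others.

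Cytokines of the IL6 family bind a receptor of their own at the cell surface, and this joins with gp130, the shared signalling subunit encoded by IL6ST. LIF uses the partner LIFR, and IL6 uses IL6R. Janus kinases (JAK1, JAK2, TYK2) bound to the receptors then phosphorylate STAT factors, above all STAT3, which enter the nucleus and switch on targets that include their own inhibitor SOCS3. In mouse, LIF acting through STAT3 keeps embryonic stem cells undifferentiated.

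The kinase gene JAK1, the shared receptor gene IL6ST and STAT3 stood highest, and the cytokine gene LIF lowest. JAK1 stood at 8.54 FPKM, IL6ST at 3.44 FPKM, STAT3 at 1.95 FPKM and SOCS3 at 1.03 FPKM. These 4 of the 10 genes (40%) reached 1 FPKM, against 48.8% of all gene names (7747 of 15877). JAK2 at 0.707 FPKM and STAT5B at 0.704 FPKM came next, nearly equal. IL6R stood at 0.410 FPKM, LIFR at 0.302 FPKM, TYK2 at 0.263 FPKM and LIF at 0.00459 FPKM. The median of the 10 genes was 0.706 FPKM, against 0.916 FPKM over all gene names. The count is near the share of the table, and which of both is higher changes with the setting. With rows summed, 5 of the 10 reached 1 FPKM, against 50.6% of names. At 0.5 FPKM the count was 6, against 56.5% of names, and at 5 FPKM it was 1, JAK1, against 28.4%. With all values scaled to a common total, as TPM, 7 of the 10 reached 1 TPM, against 61.3% of names.

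**Figure D1:**
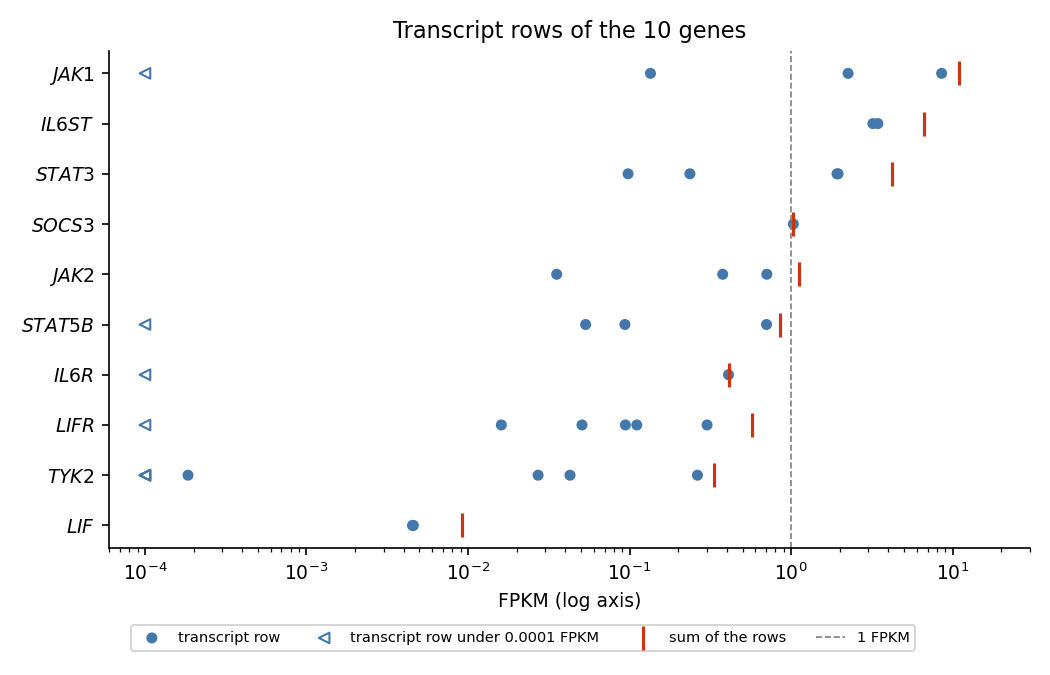
FPKM on a log axis of each of the 35 transcript rows of the 10 genes (points; triangles at the left for 7 rows under 0.0001 FPKM), with the sum of the rows of each gene as a bar and 1 FPKM as a dashed line. Rows of JAK1, IL6ST, STAT3 and SOCS3 pass the line, and JAK2 passes it with its sum alone.

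The ligand gene LIF has 2 rows, at 0.00459 and 0.00453 FPKM. Of the 13132 gene names above 0, 45 were lower than LIF. The ligands of this receptor family differed widely. IL6, the ligand of IL6R, stood at 14.0 FPKM (14.7 FPKM with its rows summed), above each of the 10 genes. CLCF1, a ligand of the CNTF receptor complex that also contains gp130 and LIFR, stood at 3.48 FPKM. Both together made 2 of the 8 ligand genes described here (25%) at 1 FPKM or more, against 48.8% of all gene names. IL11 stood at 0.178 FPKM, the oncostatin gene OSM at 0.0870 FPKM and EBI3 at 0.0352 FPKM. CTF1 and IL27 were listed at 0, and CNTF was not analysed here.

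The level of IL6 was 34.2-fold that of its receptor gene IL6R, a ratio computed after both values had been seen. Markers of cumulus and granulosa cells, the somatic cells around the egg, reached 1 FPKM in 3 of 15 measured cases. Of these, SERPINE2 stood at 13.0 FPKM, the matrix gene VCAN at 10.2 FPKM (19.1 FPKM summed) and the progesterone receptor gene PGR at 1.42 FPKM. Next came the aromatase gene CYP19A1 at 0.835 FPKM (1.06 FPKM summed), STAR at 0.30 FPKM, AMHR2 at 0.205 FPKM and GREM1 at 0.172 FPKM. With rows summed, 4 of the 15 reached 1 FPKM. The granulosa genes FSHR, INHA, FOXL2 and TNFAIP6 were listed at 0, and PTX3, a cumulus matrix gene, stood at 0.0135 FPKM. The highest rows of this list summed to 26.2 FPKM. Of 13 measured markers of leucocytes, blood and vessels, 3 reached 1 FPKM, CD14 at 2.38 FPKM, CD68 at 1.32 FPKM and SPI1 at 1.21 FPKM. Just below stood PECAM1 at 0.991 FPKM (1.72 FPKM summed), CD3E at 0.985 FPKM, ITGAM at 0.61 FPKM (1.63 FPKM summed) and HBB at 0.302 FPKM, and with rows summed 5 of the 13 reached 1 FPKM. PTPRC, which marks all leucocytes, stood at 0.0269 FPKM, and CD4, CSF1R, GATA1 and CDH5 were listed at 0. The highest rows of that list summed to 8.01 FPKM. The part of such cells in the IL6 level was not tested. The marker lists were chosen with earlier results of these data known, so their counts do not test which cells gave the RNA. Over all gene names 48.8% reached 1 FPKM. Of the egg and early embryo markers, 15 of 15 did. The highest were TFAP2C at 194 FPKM, OOSP2 at 179 FPKM, KLF17 at 85.9 FPKM and WEE2 at 65.1 FPKM, and the lowest was GATA3 at 3.16 FPKM. In bulk RNA, fewer cells with a transcript and less of it per cell cannot be told apart.

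Among the receptor genes the shared subunit exceeded its partners. IL6ST has 2 rows, ENSSSCT00000034013.2 at 3.44 FPKM and ENSSSCT00000018422.3 at 3.21 FPKM, which came to 6.65 FPKM together. LIFR has 6 rows, the highest at 0.302 FPKM and the lowest under 1e-06 FPKM, which came to 0.574 FPKM. IL6R rested on 1 row at 0.410 FPKM, since its other row was under 1e-06 FPKM. IL6ST was 11.4-fold above LIFR and 8.41-fold above IL6R, or 1.77 and 1.66 on the log2(FPKM + 1) scale, which understates ratios of low genes. With rows summed these ratios were 11.6-fold and 16.2-fold. The receptor gene for oncostatin, OSMR, stood at 0.659 FPKM, CNTFR at 0.10 FPKM and IL27RA at 0.0178 FPKM. IL6ST was thus the 1 of 6 measured receptor genes of the gp130 family (16.7%) at 1 FPKM or more, against 48.8% of all gene names. IL11RA was not analysed here.

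Subunits of other receptors that signal through JAK kinases reached 1 FPKM in 6 of 23 measured cases (26.1%), against 48.8% of all gene names. The highest were IL10RB, a subunit shared by receptors of the IL10 family, at 19.0 FPKM, IL13RA1 at 10.5 FPKM (16.6 FPKM summed), the interferon receptor gene IFNAR1 at 6.20 FPKM and the erythropoietin receptor gene EPOR at 5.20 FPKM. All of these 4 stood above IL6ST by their highest rows. With rows summed, IL6ST at 6.65 FPKM passed IFNAR1 at 6.20 FPKM and EPOR at 5.20 FPKM. The highest below 1 FPKM were IL2RA at 0.753 FPKM, the growth hormone receptor gene GHR at 0.670 FPKM, IFNGR2 at 0.306 FPKM and IL4R at 0.154 FPKM.

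Of the Janus kinases JAK1 stood highest. Its highest row was ENSSSCT00000037468.1 at 8.54 FPKM. The other rows stood at 2.25, 0.135 and 2.35e-05 FPKM, and all 4 summed to 10.9 FPKM. JAK2 has rows at 0.707, 0.377 and 0.0354 FPKM, which summed to 1.12 FPKM and so crossed 1 FPKM. TYK2 has 7 rows, 3 of them under 1e-06 FPKM, with a highest row of 0.263 FPKM and a sum of 0.333 FPKM. JAK3, the kinase of receptors with the common gamma chain, stood at 0.0416 FPKM. JAK1 exceeded JAK2 by 12.1-fold and TYK2 by 32.5-fold, or by 2.48 and 2.92 on the log2(FPKM + 1) scale. JAK1 alone held 41.8% of the summed FPKM of the 10 genes, and JAK1, IL6ST and STAT3 together held 83.4%. All 10 genes took 0.00857% of the FPKM total of the table, in which the highest gene stood at 3719 FPKM.

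**Figure D2:**
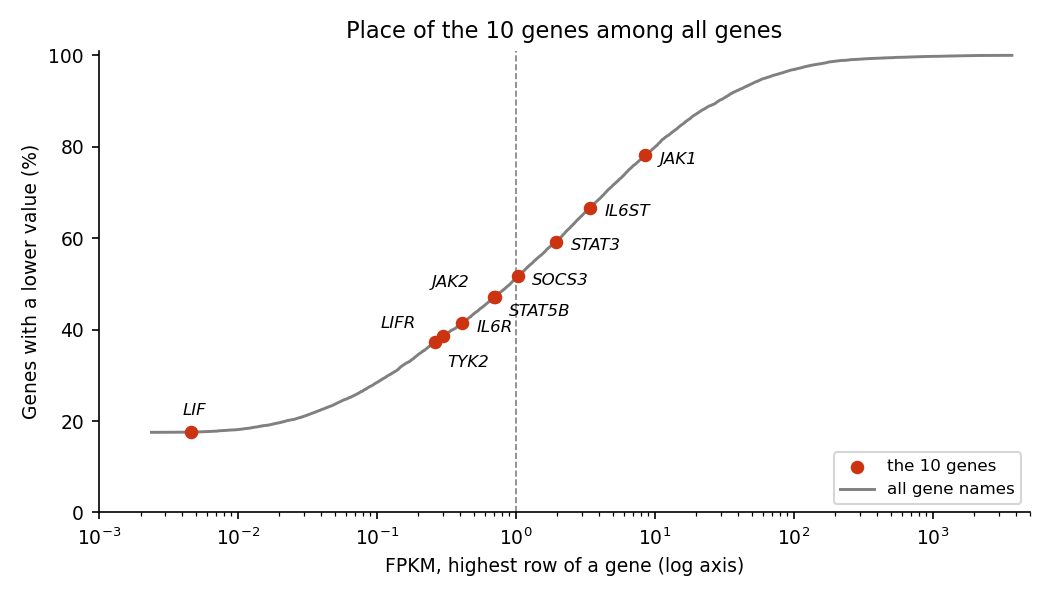
Percent of the 15877 gene names with a lower value (vertical axis) against FPKM of the highest row on a log axis, for the 10 genes (red points) and for all gene names (grey line); 1 FPKM is dashed. JAK1 lies at 78.1%, the middle genes between 37.2% and 66.7%, and LIF at 17.6%, on the flat foot of the line.

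Set against all gene names, JAK1 stood at rank 3471, with 78.1% of names lower. IL6ST had 66.7% of names lower, STAT3 59.3% and SOCS3 51.6%. JAK2 and STAT5B lay side by side at ranks 8405 and 8410, with 47.1% and 47.0% lower. IL6R had 41.4% of names lower, LIFR 38.6%, TYK2 37.2% and LIF 17.6%. Thus 4 of the 10 genes stood above the median of the table and 6 below it. Names with more transcript rows reached 1 FPKM more often. Of the 219 names with 7 rows, as TYK2 has, 65.3% did so, as did 64.3% of the 347 names with 6 rows, as LIFR has. Of the 7058 names with 1 row, as SOCS3 has, 40.0% did so.

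Of the STAT factors, STAT3 was not the highest. Its rows ENSSSCT00000018944.3 and ENSSSCT00000057478.1 were nearly equal, at 1.95 and 1.92 FPKM. The other rows stood at 0.236 and 0.0979 FPKM, and all 4 summed to 4.21 FPKM. STAT2, which acts downstream of type I interferon receptors, stood at 15.8 FPKM. STAT5A stood at 1.19 FPKM and STAT4 at 1.09 FPKM. STAT5B, a mediator of growth hormone and IL2 signals, has a highest row of 0.704 FPKM and a sum of 0.851 FPKM. STAT6 was listed at 0. Of the 6 STAT genes described here, 4 (66.7%) reached 1 FPKM, against 48.8% of all gene names. STAT3 exceeded STAT5B by 2.77-fold (0.79 on the log2 scale), and by 4.95-fold with rows summed. STAT5A and STAT5B are close paralogues between which the assignment of fragments could be split, and their summed rows came to 2.05 FPKM together.

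The feedback inhibitor SOCS3 has 1 row, ENSSSCT00000054084.1, at 1.03 FPKM, the closest of the 10 highest rows to the 1 FPKM mark. STAT3 was 1.89-fold above it by the highest row and 4.08-fold by the sum. By the highest row, all other measured inhibitors of the family except SOCS7 were higher. SOCS1, which blocks JAK kinases, stood at 27.6 FPKM, SOCS4 at 10.1 FPKM, the STAT5-induced inhibitor CISH at 5.55 FPKM and SOCS5 at 1.66 FPKM. SOCS7 stood at 0.956 FPKM and crossed 1 FPKM with its rows summed, at 1.85 FPKM. By the highest row 5 of 6 measured genes of the family (83.3%) reached 1 FPKM, against 48.8% of all gene names. SOCS1 was 26.7-fold above SOCS3, a ratio computed after both values had been seen. SOCS2 and SOCS6 were not analysed here.

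**Figure D3:**
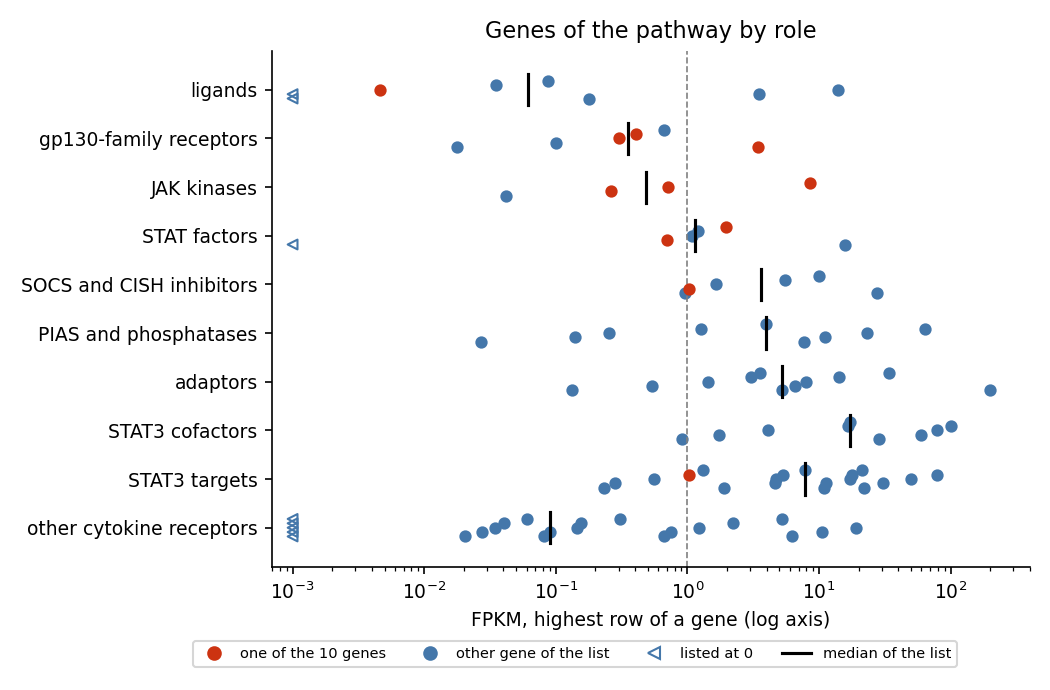
FPKM of the highest row on a log axis for the genes of each role in the pathway, with the 10 genes in red, other genes of the list in blue, genes listed at 0 as triangles at the left and list medians as black bars; 1 FPKM is dashed. Median levels run from 0.0611 FPKM for ligands and 0.356 FPKM for gp130-family receptors to 17.4 FPKM for the list labelled STAT3 cofactors. That list also holds nuclear import genes and the target gene PIM1.

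The lists of PIAS and phosphatase genes, adaptors and cofactors had higher medians than the receptor lists. The medians were 3.97 FPKM for PIAS and phosphatase genes, 5.27 FPKM for adaptors and 17.4 FPKM for cofactors, against 0.356 FPKM for the gp130-family receptors and 0.0909 FPKM for the other cytokine receptors. The JAK kinases themselves had a median of 0.485 FPKM, and the STAT factors 1.14 FPKM. Over all gene names the median was 0.916 FPKM, and 48.8% reached 1 FPKM. Of 9 PIAS and phosphatase genes that act on JAK or STAT proteins, 6 reached 1 FPKM. They were led by PIAS1, a SUMO ligase gene, at 64.1 FPKM, the phosphatase gene PTPN1 at 23.2 FPKM, PIAS2 at 11.2 FPKM and PIAS4 at 7.68 FPKM. PIAS3, named for its inhibition of STAT3, stood at 1.27 FPKM (2.48 FPKM summed). The phosphatase genes PTPN6 and DUSP3 stood at 0.253 and 0.140 FPKM. Of 11 adaptor and partner genes 9 reached 1 FPKM, with the lipid kinase gene PIK3CA at 198 FPKM, STAM at 34.2 FPKM, STAM2 at 14.1 FPKM (20.5 FPKM summed) and PIK3R1 at 7.92 FPKM highest. SH2B1 and SH2B3 stood at 0.543 and 0.132 FPKM. The cofactor list also holds nuclear import genes and was not split by whether a gene raises or lowers STAT3 activity. Of its 9 measured genes 8 reached 1 FPKM, led by the deacetylase gene HDAC2 at 101 FPKM, the kinase gene PIM1 (79.3 FPKM, also in the target list), NDUFA13 at 59.3 FPKM and HDAC1 at 28.4 FPKM. The coactivator gene NCOA1 stood at 0.914 FPKM (1.58 FPKM summed).

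Genes known as STAT3 targets in mouse embryonic stem cells or other mammalian cells reached 1 FPKM in 16 of 19 measured cases (84.2%), with a median of 7.78 FPKM. Over all gene names 48.8% did so, with a median of 0.916 FPKM. SOCS3 is one of the 16. The highest were PIM1 at 79.3 FPKM, the immediate-early gene FOS at 50.0 FPKM, the stem cell factor gene SALL4 at 30.9 FPKM and KLF5 at 21.9 FPKM. The members below 1 FPKM were GBX2 at 0.559 FPKM, TFCP2L1 at 0.283 FPKM and SBNO2 at 0.235 FPKM. GBX2 and TFCP2L1 mediate the action of LIF in mouse embryonic stem cells. KLF4 was not analysed here. SALL4 is also among the egg and early embryo markers. The target list was chosen with earlier results of these data known, so its count is not a test. All of these targets answer to other signals as well, and no second condition was analysed, so their levels give no measure of STAT3 activity. FPKM values are RNA levels and do not show phosphorylation of any of these proteins.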

How the data were processed

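The RNA of 4 samples of pig PG morulae was copied with Smart-seq2, per the labels' protocols. The authors deposited FPKM values, per the file headers, with 1 row per Ensembl transcript (37571 rows) and the 4 libraries merged into 1 column, per the name of the deposited table. No source used here tells how. Among the tools and builds in the submitters' processing notes are TopHat2 2.1.1, Cufflinks 2.2.1 and susScr11, with no role given. The values sum to 304889, and 4534 rows lay above 0 and under 1e-06 FPKM, so whole reads could not be recovered and the depth is unknown. The last 474 rows were all at 0, and none of the 10 genes lies there.

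Gene symbols were matched exactly. The highest row was taken as the level of a gene. Ranks, percents of names with a lower value and log2(FPKM + 1) differences for 6 pairs were computed with Python 3.11.15 and pandas 2.3.3, and tested on simulated data. The genes, the 13 other lists, the pairs and the rule for named genes were chosen with earlier results of these data known. Some genes of these lists are not reported here and enter no list count. The rule named every other measured ligand, gp130-family receptor, JAK, STAT and SOCS gene, and of other lists the 4 highest and up to 4 genes nearest below 1 FPKM; further marker genes and PIAS3 were named after their values were seen. No sequences are shown, since no pig sequence table was used here.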

Additional observations from a re-analysis of the deposited data

How the results depend on the processing

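No paired analysis was possible because the 4 replicates share 1 column, and for the same reason leaving out each replicate was not run. The count of 4 genes at 1 FPKM or more became 5 with summed rows and 6 at 0.5 FPKM, 7 at 1 TPM (all rows scaled to a common total, which multiplies each value by 3.28) and 1 at 5 FPKM. The median of 0.706 FPKM became 0.942 FPKM with summed rows and 2.31 TPM after scaling. With a pseudocount of 0.1 the log2 differences were 3.14 for IL6ST over LIFR, 2.80 for IL6ST over IL6R, 3.42 for JAK1 over JAK2, 4.57 for JAK1 over TYK2, 1.35 for STAT3 over STAT5B and 0.86 for STAT3 over SOCS3. With summed rows they were 2.28, 2.44, 2.49, 3.16, 1.49 and 1.36 in the same order. All 6 kept their sign with summed rows; another pseudocount cannot change a sign. With summed rows JAK2 (1.12 FPKM) passed SOCS3 (1.03 FPKM), and LIFR (0.574 FPKM) passed IL6R (0.410 FPKM). Percents of names lower shifted by between -1.88 and 7.26 points with summed rows, and SOCS3 then had 49.8% of names lower in place of 51.6%. They shifted by between -24.9 and -8.67 points for the 9 genes that remain among names at 0.1 FPKM or more. They shifted by at most -1.13 points without the names found only in the zero rows at the end, and by at most -2.97 points without 682 names of Rfam families and miRNAs, a choice made after seeing the data. Unknown depth limits the low values most, above all that of LIF.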
